A study of Mus musculus with 8 samples.

Results

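The serine/arginine-rich (SR) splicing factor genes were followed in mouse retinal organoids treated with dTAG-13, a compound that directs a degron-tagged RNA methyltransferase, Mettl3, to degradation. The 10 genes taken were Srsf1, Srsf2, Srsf3, Srsf4, Srsf5, Srsf6, Srsf7, Srsf9, Srsf10 and Srsf11, selected by name from 35494 loci of the 1 h table, and each had a row of its own in every table. None of the 10 differed from the 0 h organoids by 1.5-fold with separate intervals at 1, 8 or 24 h, where 0.402%, 4.43% and 5.48% of all loci tested did, so 0 of 10 is near the overall share. At 1 h, 9 of 10 had a level above that at 0 h, as did 76.9% of other loci within their 0 h FPKM range. At 8 h 9 of 10, and at 24 h 8 of 10, had a level below it, against 74.6% and 70.8% of such loci.

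SR proteins carry RNA recognition motifs that bind exonic sequence and a tail rich in arginine and serine that recruits spliceosome components. Phosphorylation of that tail by SRPK and CLK kinases governs their import into the nucleus and their release from nuclear speckles. Many SR genes hold back their own output through alternatively spliced transcripts that are degraded by nonsense-mediated decay. Mettl3 is the catalytic subunit of the complex that places N6-methyladenosine on mRNA, and the nuclear reader of that mark, Ythdc1, is known to bind Srsf3 and Srsf10.

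All organoids came from the Rx:GFP mouse line with FKBP12F36V-HA, a degron tag, at the C terminus of both endogenous Mettl3 alleles, so the 0 h group carries the tag too. Polyadenylated RNA was sequenced from day 6 organoids, differentiated in a medium containing AGN, without dTAG-13 (0 h) or after 1, 8 or 24 h of dTAG-13 at 125 nM, with 2 replicates per group. dTAG-13 brings the tagged protein to a ubiquitin ligase; Mettl3 protein was not measured in the tables used here. The labels name no solvent control, no untagged line and no number of clones, so effects of the compound itself cannot be told apart from those of Mettl3 loss.

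The deposited tables compare 0 h with 1, 8 and 24 h and hold 1 column per group, in which the authors had already combined the replicates, so no test across replicates was possible. Levels are given as FPKM (fragments normalized to transcript length and sequencing depth), with the deposited interval in parentheses. Ratios are log2 of (FPKM + 0.1) at the later time over that at 0 h within a table. The standard error (SE) of a ratio comes from the deposited variances of the estimated counts. The deposited FPKM intervals of some genes, such as Srsf5 and Srsf10, are wider than this SE implies. Ranges of 2 SE can therefore be too narrow for a ratio of FPKM. A locus was tested where it reached 1 FPKM in 1 of the groups, and called where it differed by 1.5-fold or more without overlap of its intervals. All 3 comparisons share the 0 h libraries and are given side by side.

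Total estimated counts per group lay between 31361518 and 32562075, and each SR gene held between 2132 and 31510. Mettl3 mRNA was 19.4 FPKM at 0 h and 17.0 at 24 h with overlapping intervals; the degron acts on the protein, so this level does not check the treatment. Eye field genes were present at 0 h, with Rax at 49.1, Six6 at 54.6 and Lhx2 at 142 FPKM in the 1 h table. Pluripotency genes were present as well, with Pou5f1 at 34.3 and Dppa5a at 197 FPKM. Of the mesoderm genes, T and Mixl1 were at 0.0795 and 0.0135 FPKM and Eomes at 1.07. The neural crest genes Sox10, Foxd3 and Tfap2a were at 0.0819, 0.385 and 0.274 FPKM. Among endoderm genes, Sox17, Foxa2 and Gata4 were at 1.05, 0.261 and 1.49 FPKM. The telencephalon gene Emx2 was at 18.7 FPKM and Dlx2 at 0.0402. Of the pigment epithelium genes, Mitf was at 19.7 and Pmel at 28.4 FPKM, while Tyr was listed at 0.

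The SR genes taken were among the more abundant transcripts of these organoids. At 0 h they ranged from 64.8 FPKM for Srsf4 to 419 for Srsf3 in the 1 h table, between the 88.3rd and the 98.4th percentile of the loci tested. Srsf12, an SR gene by name, was not among them and was listed with the SR-related proteins. It was at 0.913 FPKM at 0 h in the 1 h table, so the range does not hold for every gene so named. In the 24 h table the order was Srsf5, Srsf3, Srsf1, Srsf2, Srsf7, Srsf10, Srsf6, Srsf11, Srsf9 and Srsf4. Neighbours in this order had overlapping intervals throughout. The 1 h table placed Srsf3 above Srsf5 and Srsf6 above Srsf10, from the same 0 h libraries.

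**Figure D1:**
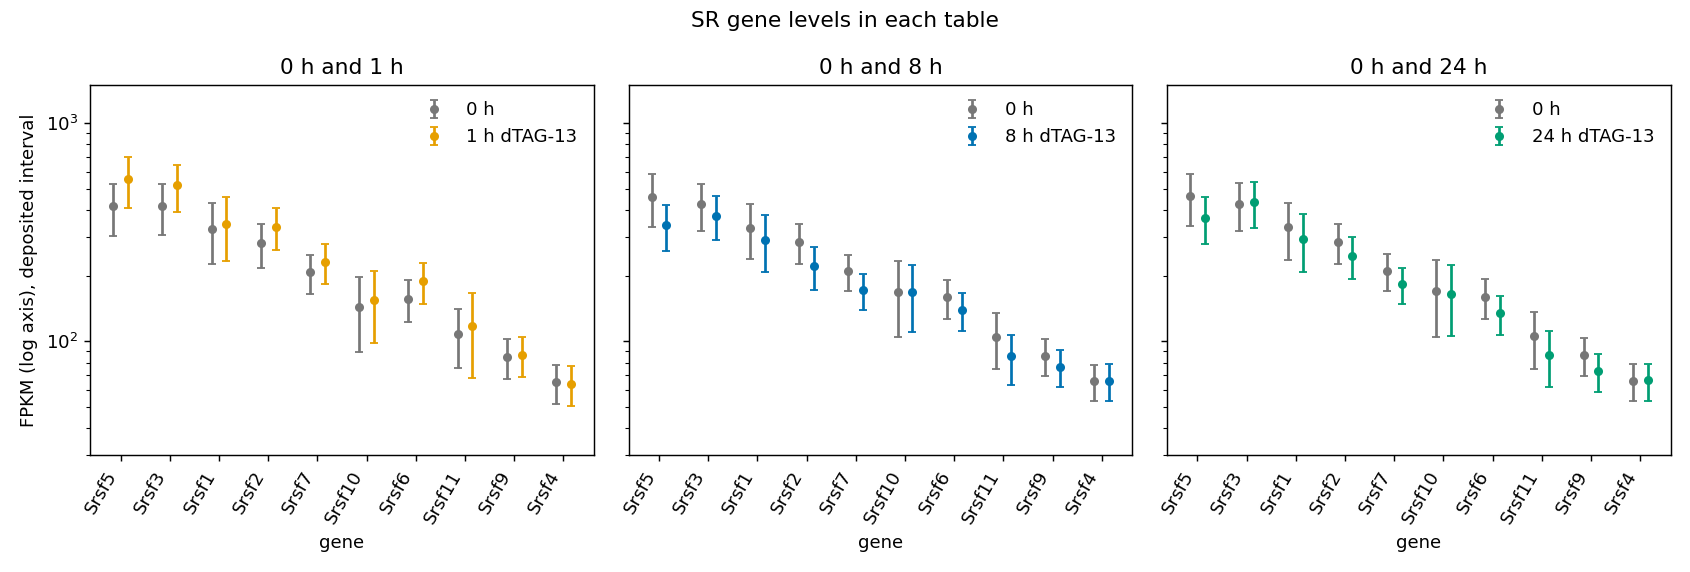
FPKM of the 10 SR genes on a log axis at 0 h (grey) and after 1, 8 or 24 h of dTAG-13 (coloured), each panel from the table that compares them; points are the deposited values pooled over 2 replicates and bars the deposited intervals. The bars of each gene overlap in every panel, and Srsf5, Srsf3, Srsf1 and Srsf2 are the most abundant.

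What defines the family was read from the coding sequences of the GENCODE M21 transcripts (GRCm38, forward strand of the transcript). Neighbouring codons for arginine and serine, in either order, numbered between 4.05 per 100 codons in Srsf9 and 23.5 in Srsf2, against a median of 0.775 and an upper quartile of 1.17 over 10928 coding genes tested. The 60 coding bases richest in such pairs are shown for Srsf2 and Srsf9, the genes at either end, and for Srsf5, whose level differed most from 0 h. Capitals mark codons that belong to a pair of arginine and serine.
Srsf2: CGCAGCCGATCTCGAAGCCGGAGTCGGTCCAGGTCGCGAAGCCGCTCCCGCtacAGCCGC
Srsf5: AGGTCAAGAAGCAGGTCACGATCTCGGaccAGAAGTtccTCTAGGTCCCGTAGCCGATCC
Srsf9: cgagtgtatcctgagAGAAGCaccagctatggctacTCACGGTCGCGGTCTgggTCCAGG
The Srsf2 stretch lies in exon 2 (chr11:116852256-116852315, minus strand) and holds 17 pairs. The Srsf5 stretch holds 15 pairs and runs from exon 7 into exon 8 (between 80949603 and 80949777 on chromosome 12, plus strand). In Srsf9 the stretch lies in exon 4 (chr5:115332594-115332653, plus strand) and holds 6 pairs.

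At 1 h, 0 of the 10 SR genes were called, and 0.402% of the 13690 loci tested were called. Their median log2 ratio was 0.14, against 0.01 over all loci tested, and 9 of 10 lay above 0, as did 51.6% of all loci. Their summed level was 2211 FPKM at 0 h and 2597 at 1 h, a difference of 17.4%. At 8 h, 0 of 10 were called while 4.43% of 13825 loci were. The SR median was then −0.19 against 0.01, 9 of 10 lay below 0 as did 48.7% of all loci, and the sum was 2298 FPKM at 0 h and 1938 at 8 h. At 24 h, 0 of 10 were called while 5.48% of 13910 loci were. The SR median was −0.21 against 0.02, 8 of 10 lay below 0 as did 47.9% of all loci, and the sum was 2306 FPKM at 0 h and 2055 at 24 h. In bulk RNA such values cannot tell fewer cells of a type from less RNA per cell.

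Abundant loci in general leaned the same way. Among the other 1365 loci within the 0 h FPKM range of the SR genes, the median ratio at 1 h was 0.07 and 76.9% lay above 0. At 8 h the 1362 such loci had a median of −0.15, with 74.6% below 0. At 24 h their median was −0.14, with 70.8% below 0. The SE of single SR ratios was 0.19 to 0.23.

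**Figure D2:**
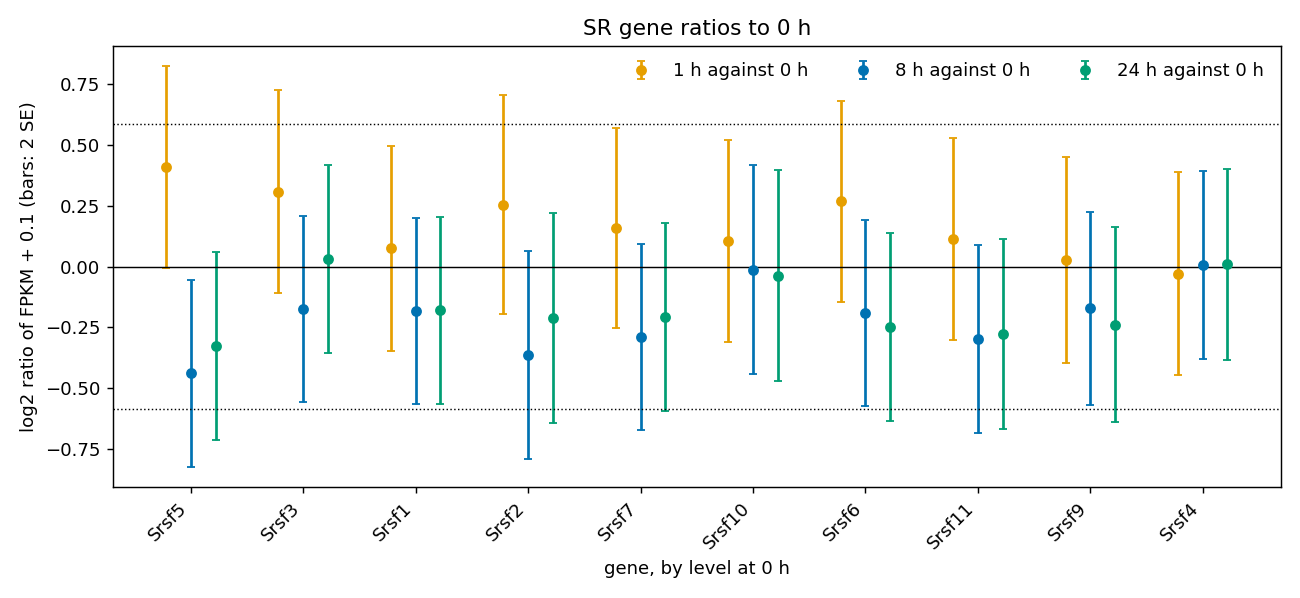
Log2 ratio of FPKM + 0.1 to 0 h for each SR gene at 1, 8 and 24 h; bars are 2 SE either side, from the deposited variances, and dotted lines mark 1.5-fold. The variances are those of the estimated counts. Bars cross 0 for all but Srsf5 at 8 h, whose FPKM intervals are wider than its bar implies and overlap. The points at 1 h lie mostly above 0, and those at 8 and 24 h mostly below.

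Srsf4, Srsf5 and Srsf6 encode SR proteins with a pair of RNA recognition motifs and a long arginine-serine tail. Srsf5 (chr12:80945504-80950507, plus strand) was at 416 FPKM (304 to 528) at 0 h and 553 (407 to 699) at 1 h. Beside 8 h it was at 461 before dTAG-13 (334 to 588) and 340.3 after (259 to 422), and beside 24 h at 463 (338 to 587) and 369 (280.3 to 458). Srsf5 was thus highest at 1 h and lowest at 8 h, with overlapping intervals each time. The log2 ratios were 0.41 (SE 0.21) at 1 h, −0.44 (SE 0.19) at 8 h and −0.33 (SE 0.19) at 24 h. By the count variances the 8 h value was 2.29 SE from 0, the only SR ratio beyond 2 SE. Its range of 2 SE ran from −0.82 to −0.05. The FPKM intervals of Srsf5 are wider than this SE implies, so that range is not a bound for FPKM. At 1 h 95.0% of the loci tested had a lower ratio than Srsf5, and at 8 h 8.54% did. The estimated counts gave 0.33, −0.47 and −0.36.

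Srsf6 (chr2:162931528-162937121, plus strand), which is known to act in exon definition, was at 157 FPKM (123 to 191) at 0 h and 189 (149 to 229.8) at 1 h. Its level was 159 (127 to 191) and then 139 (111 to 167) in the 8 h table, and 159.7 (127 to 193) and then 134 (107 to 162) in the 24 h table. The ratios of 0.27, −0.19 and −0.25 followed the same order of signs as Srsf5, within 2 SE of 0. Srsf4 (chr4:131873617-131901706, plus strand), the least abundant member, was nearly level. It stood at 64.8 FPKM (51.6 to 78.1) at 0 h and 63.5 (50.3 to 76.7) at 1 h, at 65.7 and 66.0 in the 8 h table, and at 65.9 and 66.3 in the 24 h table. The ratios were −0.03, 0.01 and 0.01, with ranges of 2 SE between −0.45 and 0.40. Srsf4 was the only SR gene below 0 at 1 h and the only one above 0 at 8 h, but its sign at 8 and 24 h turned when estimated counts or centred ratios were used.

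Srsf3 and Srsf7 encode the short SR proteins with a single RNA recognition motif that act as adaptors for mRNA export; Srsf7 also has a zinc knuckle. Srsf3 (chr17:29032628-29043373, plus strand) was at 419 FPKM (309 to 529) at 0 h and 519 (391 to 647) at 1 h. The 8 h table gave 425 (322 to 528) and then 377 (291 to 463), while 426 (321 to 531) and then 436 (331 to 540.4) came from the 24 h table. The level was highest at 1 h, and at 24 h it was close to that at 0 h. The ratios were 0.31 (SE 0.21), −0.17 (SE 0.19) and 0.03 (SE 0.19), and the last became −0.04 with estimated counts. Srsf7 (chr17:80200080-80207307, minus strand) was at 207 FPKM (165 to 249) and 231 (184 to 279) in the 1 h table. It was at 209.7 (169.9 to 249) and 171 (139 to 204) in the 8 h table, and at 210.4 (170.0 to 251) and 182 (148 to 217) in the 24 h table. Its ratios of 0.16, −0.29 and −0.21 were each within 2 SE of 0, and no interval stood apart.

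Srsf1 and Srsf9 are close relatives whose proteins have a second, atypical RNA recognition motif; Srsf1 promotes recognition of 5′ splice sites. Srsf1 (chr11:88047373-88053755, plus strand) was at 329 FPKM (226 to 431) and 346 (234 to 458) in the 1 h table. The 8 h comparison gave 333 (239 to 427) and 293 (208 to 378), and the 24 h comparison gave 334 (237 to 431) and 295 (208 to 382). Later levels were therefore lower by less than the width of either interval, and the ratios were 0.08, −0.18 and −0.18. Srsf9 (chr5:115327177-115333080, plus strand) was at 85.0 FPKM (67.3 to 103) and 86.6 (68.6 to 105) in the 1 h table. It was at 86.1 (69.3 to 103) and 76.4 (61.6 to 91.3) in the 8 h table, and at 86.4 (69.4 to 103) and 73.2 (58.8 to 87.6) in the 24 h table. The ratios of Srsf9, 0.03, −0.17 and −0.24, were within 2 SE of 0, with overlapping intervals.

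Srsf2 (chr11:116849901-116853094, minus strand), a marker protein of nuclear speckles that also acts in transcription elongation, had the lowest ratio at 8 h after Srsf5. It was at 281 FPKM (217 to 345) at 0 h and 336 (261 to 410.1) at 1 h. The 8 h table gave 285 (225 to 344) and then 221 (173 to 270.2), while 286 (225 to 346) and then 247 (193 to 301) came from the 24 h table. Its levels were highest at 1 h and lowest at 8 h, and no interval stood apart from that at 0 h. The ratios were 0.25 (SE 0.23), −0.36 (SE 0.21) and −0.21 (SE 0.22). The locus span of Srsf2 in the tables is shared with Jmjd6, at 44.4 FPKM and with a ratio of 0.33 at 8 h, and with a locus named Mettl23,Mfsd11, at 20.1 FPKM. Whether the counting used strand is not given in the sources used here, so reads of overlapping genes may not be separated.

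Srsf10 and Srsf11 are less typical members. Srsf10 can repress splicing when dephosphorylated, as in mitosis, and Srsf11 has been linked to microexons in neurons. Srsf10 (chr4:135855747-135869908, plus strand) was at 143 FPKM (89.3 to 198) and 154 (98.5 to 210.5) in the 1 h table. It was at 169 (105 to 233) and 168 (111 to 225) in the 8 h table, and at 169.8 (104 to 235) and 166 (106 to 225) in the 24 h table. Its ratios, 0.11, −0.01 and −0.04, were near 0, with overlapping intervals. The locus begins at 135855368 in the 1 h table and spans 135855747 to 135884886, shared with Pnrc2, in the others; the 0 h FPKM of Srsf10 was 1.18 times as high in the 8 h table as in the 1 h table, while its 0 h counts were 1.01 times as high. The same ratio was 1.11 for Srsf5, 0.969 for Srsf11 and 1.01 for the other 7 genes.

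Srsf11 (chr3:158010473-158036639, minus strand) was at 108 FPKM (75.4 to 141) at 0 h and 117 (67.7 to 167) at 1 h. It was at 105 (74.4 to 135) and 85.4 (63.3 to 107) in the 8 h table, and at 105 (74.3 to 136) and 87.0 (61.9 to 112) in the 24 h table. The values at 8 and 24 h were the lower ones, with intervals that overlapped those at 0 h. Its ratios were 0.12, −0.30 and −0.28, with an SE of 0.19 at 8 and 24 h.

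The precision sets how far these values can be read. With 2 SE from the count variances either side, the range stayed within 1.5-fold for 6 of 10 genes at 1 h, 6 at 8 h and 4 at 24 h. For the remaining genes a 1.5-fold difference lay inside the range. These counts can overstate the precision of FPKM. The FPKM intervals of Srsf10 in the 8 h table, 105 to 233 and 111 to 225, are wider than its SE implies. Ratios exceeded 1 SE in 4, 4 and 5 of 10 genes at 1, 8 and 24 h.

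Some SR transcripts have near-identical copies elsewhere. Stretches of at least 200 bases with at least 90% identity on the same strand were found in 5 other annotated genes for Srsf3, in 2 for Srsf10 and in 1 each for Srsf5 and Srsf7. For Srsf3 these include Gm12355, 98.3% identical over 1298 bases, which was at 1.46 FPKM at 0 h and 2.35 at 1 h. The Srsf5 copy, Gm12966, is 99.0% identical over 810 bases. Gm12992 covers 1447 bases of the Srsf4 transcript on the opposite strand. Levels of Srsf3, Srsf5, Srsf7 and Srsf10 are uncertain to the extent that reads were shared with such copies, and that of Srsf4 if strand was not used.

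The annotation of SR genes is rich in unproductive transcripts. A transcript marked for nonsense-mediated decay is annotated in 9 of 10 SR genes, all but Srsf10, against 28.7% of 10947 coding genes tested. A retained intron is annotated in 8 of 10, all but Srsf9 and Srsf10, against 59.8%. Both kinds occur in 8 of 10 SR genes against 23.1%. The values used here are per gene, so the share of productive SR mRNA was not measured.

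The motif GGACT, a preferred sequence for N6-methyladenosine, was counted on the transcript strand. At least 1 match was found in 9 of 10 SR transcripts, near the 91.7% of coding genes tested. The SR median of 0.413 matches per kb lay below that of 1.05 over those genes. Srsf1 has 5 matches, Srsf9 has 3, Srsf7 has 2, and Srsf5 has none. Only GGACT was searched, in 1 representative transcript a gene. The mark is known to be common near the coding end, so the match nearest to it (Srsf7) is shown, with 1 from the 3′ UTR of the abundant Srsf3 and the 5′ UTR match of Srsf2; GGACT is in capitals.
Srsf7: cagaaagaatGGACTgaagttctca
Srsf3: accctgtattGGACTgtaataaaca
Srsf2: ctacccacgaGGACTgtagctaccg
The Srsf7 match begins 4 bases before the coding end in exon 8 (chr17:80201540-80201564, minus strand), so its last base is the first of the stop codon. The Srsf3 match lies in the 3′ UTR, 1762 bases after the coding end (chr17:29043161-29043185, plus strand). Matches in the 3′ UTR of Srsf4 and Srsf10, 419 and 1075 bases after the coding end, and in that of Srsf1 and Srsf7, are not printed. In Srsf2 the match lies in the 5′ UTR (chr11:116853006-116853030, minus strand). A match is only a sequence, and whether any is methylated in these organoids was not measured in the tables used here.

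Coding genes with few exon junctions had higher ratios than those with many at 8 and 24 h, so each SR gene was set beside genes of like junction density. Genes tested were split into 10 groups of equal size by coding exon junctions per kb of coding sequence. Srsf2, with 1.51 junctions per kb, falls in the second group, whose median ratio at 8 h was 0.34 (quartiles 0.11 and 0.56), while Srsf2 itself was at −0.36. Of that group, 4.57% of genes lay lower. Among its 30 genes within the FPKM range of the SR genes, the median was 0.12 and none lay lower than Srsf2. At 24 h the second group had a median of 0.31, Srsf2 was at −0.21, and 16.7% of those 30 genes lay lower.

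Srsf1, with 4.03 junctions per kb, was at −0.18 at 8 h in a group with a median of 0.19, and 11.0% of the group lay lower. Among the 51 genes of that group within the SR range of FPKM, the median was −0.04 and 13.7% lay lower. Srsf6 and Srsf9, at −0.19 and −0.17, share a group with a median of 0.08. At 8 h, 7 of the 10 SR genes lay below the first quartile of their group, all but Srsf3, Srsf4 and Srsf10. Among genes that were also of like FPKM, 3 did, Srsf1, Srsf2 and Srsf5, near the share that a first quartile sets by definition. In the same setting Srsf10 lay above the third quartile at 8 h. At 24 h 4 genes lay below the first quartile, Srsf1, Srsf2, Srsf6 and Srsf9, and 2 above the third. At 1 h 0 lay below the first and 5 above the third. Srsf5, with 7.43 per kb, lay below its group's first quartile of −0.23 at 8 h, and at 1 h 99.2% of its group lay lower. These positions describe the annotated transcripts and carry no test.

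**Figure D3:**
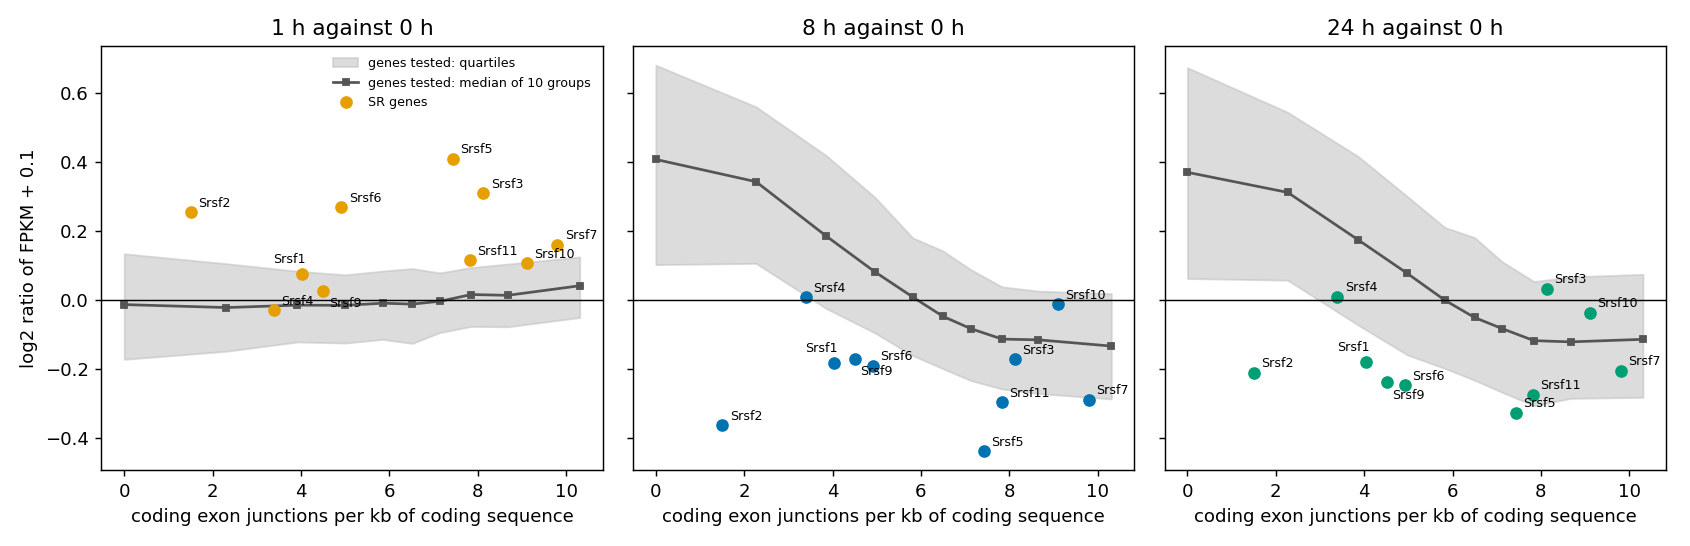
Log2 ratio of FPKM + 0.1 at 1, 8 and 24 h against coding exon junctions per kb of coding sequence; the line joins the medians of 10 equal groups of coding genes tested, shading spans their quartiles, and coloured points are the SR genes. At 8 h the line falls from 0.41 to −0.13, and Srsf5 at −0.44 and Srsf2 at −0.36 are the lowest SR genes. There 7 of 10 SR genes lie below the first quartile of their group. The groups hold genes of all levels, and among those of like FPKM 3 of 10 do.

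Kinases and the importer of SR proteins were described as a list of 10 genes, of which 9 were tested. None was called at any time. At 1 h all 9 had ratios below 0, with a median of −0.10, where the SR genes themselves had a median of 0.14. Their medians were 0.07 at 8 h and 0.00 at 24 h, with 5 of 9 above 0 each time. Clk1, a kinase that phosphorylates SR proteins in the nucleus, was at 74.4 FPKM (58.6 to 90.2) at 0 h and 61.4 (48.7 to 74.2) at 8 h. Srpk1, the main cytoplasmic SR kinase, was at 53.7 FPKM (37.1 to 70.2) at 0 h and 65.2 (45.5 to 85.0) at 8 h. Dyrk1a had the highest ratio of the list at 8 and 24 h. It was at 29.4 FPKM (21.5 to 37.2) at 0 h and 40.6 (29.1 to 52.0) at 8 h. Its log2 ratios were 0.46 (SE 0.19) at 8 h and 0.51 (SE 0.19) at 24 h. The intervals overlapped for each of these kinases.

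Across 5 lists of other splicing genes, 129 in all, 115 were tested at 1 h, 114 at 8 h and 112 at 24 h. At 1 h 0 were called, at 8 h 2 and at 24 h 1, all of them lower, beside 0.94% of all loci tested called lower at 8 h and 1.65% at 24 h. Rsrp1, an arginine- and serine-rich protein gene, fell by 0.71 on the log2 scale at 8 h, from 63.4 FPKM (49.2 to 77.6) to 38.7 (30.4 to 47.1), and its 24 h intervals overlapped. Hnrnpll, an hnRNP that regulates alternative splicing in lymphocytes, fell by 0.79 at 8 h, from 67.0 FPKM (54.3 to 79.7) to 38.6 (31.0 to 46.3). Prpf19, a core spliceosome ubiquitin ligase, fell by 0.87 at 24 h, from 141 FPKM (109 to 173) to 76.8 (61.2 to 92.4). In these lists together 74.6% of the genes tested lay below 0 at 8 h and 73.2% at 24 h. Of other loci within the FPKM range of the SR genes, 74.6% and 70.8% did. The lists also hold genes outside that range, so the 2 sets are not matched in abundance.

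The hnRNP and PTB proteins, which often act against SR proteins on the same exons, had medians of 0.09, −0.26 and −0.25 at 1, 8 and 24 h. Of their genes 22 of 25 lay above 0 at 1 h, 20 of 25 below it at 8 h and 19 of 24 below it at 24 h. Core spliceosome proteins had medians of 0.10, −0.16 and −0.12. SR-related proteins, at 0.02, −0.09 and −0.09, and other alternative splicing regulators, at −0.03, −0.11 and −0.13, were nearer to 0. The SR medians of 0.14, −0.19 and −0.21 lay beyond those of the core spliceosome at each time and between those of the core spliceosome and the hnRNP list at 8 and 24 h; these differences were not tested.

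**Figure D4:**
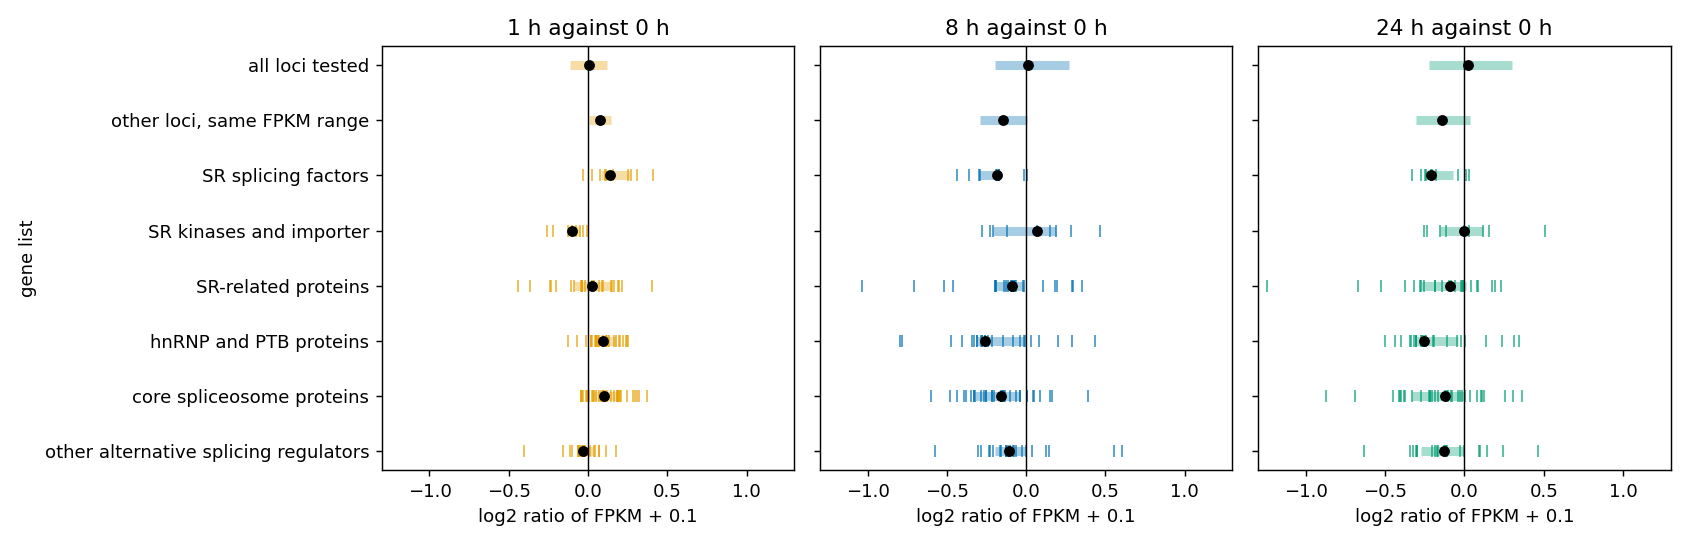
Log2 ratio of FPKM + 0.1 at 1, 8 and 24 h for all loci tested, other loci within the FPKM range of the SR genes, the SR genes and 5 lists of splicing genes; ticks are genes, dots medians and thick bars quartiles. The SR dots lie at 0.14, −0.19 and −0.21, and those of the other loci within their FPKM range at 0.07, −0.15 and −0.14.

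The SR gene farthest from 0 h over 8 and 24 h was Srsf5, and loci with the most similar ratios were sought among 8502 uniquely named loci at 5 FPKM or more. By Euclidean distance over the 3 ratios the nearest was Dnajc12, a co-chaperone gene, at 0.45, −0.45 and −0.23. Tdg, a DNA repair glycosylase gene, followed at 0.34, −0.38 and −0.27, and Snrpd3, an Sm core protein gene, at 0.32, −0.39 and −0.37. The distances were 0.106, 0.109 and 0.111, and 15 loci lay within 0.2. The 3 ratios share the 0 h libraries, and the SEs of the Srsf5 ratios (0.19 to 0.21) exceed these distances.

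Marker gene sums of the organoids also differed between these groups. The summed level of eye field genes with their own row was 557 FPKM at 0 h and 696 at 8 h, and 559 and 748 in the 24 h table, where Rax and Lhx2 were called higher among 7 tested. Pluripotency genes summed to 275 FPKM at 0 h and 247 at 8 h, and to 276 and 180 in the 24 h table, where Dppa5a was called lower among 4 tested. Most of that difference was Dppa5a, at 200.4 and 109 FPKM, beside Pou5f1 at 34.8 and 28.8, Nanog at 20.8 and 18.9, and Zfp42 at 20.1 and 22.8. Pigment epithelium genes summed to 48.1 and 81.8 FPKM in the 24 h table, and none was called. Most of this difference was Pmel, at 28.9 and 60.3 FPKM, beside Mitf at 19.2 and 21.4 and Tyr at 0 and 0.0213. Dcx, the neuronal marker with a row of its own, was at 0.263 and 0.137 FPKM in the 24 h table. The part of these shifts in the SR gene values was not tested.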

How the data were processed

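Samples were grouped by time in dTAG-13 from their titles, 2 replicates in each of 4 groups. Per the file headers, the authors deposited for each of 3 comparisons an FPKM table with interval bounds and status, and a table of estimated counts with a variance (a score in squared counts), 1 column per condition. Cufflinks 2.2.1, Cuffdiff and mm10 are named in the submitters' processing notes, without role or order. The interval's level, the strandedness and the annotation are not given in the sources used here. The labels mention repeated library rounds, which the tables do not separate, and nothing says that replicates came from separate cultures.

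Ratios were made within tables, since the tables were scaled separately, with a pseudocount of 0.1 FPKM. Loci with status OK and at least 1 FPKM in 1 condition were tested. Loci without a name held between 1.03% and 1.04% of the 0 h counts and were kept among all loci: at 1, 8 and 24 h they were 1592, 1578 and 1650 of the loci tested and 21, 60 and 80 of those called. Locus starts were made 1-based. Gene structure came from GENCODE M21 (GRCm38), with 1 representative transcript a gene, and near-identical copies from BLAST+ 2.17.0. Scripts used Python 3.11.15 with pandas 2.3.3. The calling was tested on simulated data with changes larger than the fold used to call. That does not show how often a 1.5-fold difference would be found.

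All 10 SR genes are named. Of each splicing list the genes called at any time are named, at most 3 in each direction, and the 3 loci nearest in ratio to the SR gene farthest from 0 h. Clk1, Srpk1, Dyrk1a and Srsf12 are named as well, though none of them was called. The SR genes and all lists were chosen with earlier results of these data known. A planned comparison of protein length and identity was not made, and arginine-serine codon pairs were counted instead. Alternatives covered the pseudocount, the filter, counts in place of FPKM, centring, the fold and the use of intervals.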

Additional observations from a re-analysis of the deposited data

How the results depend on the processing

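No paired analysis was possible because each table holds 1 column per condition, and for the same reason no replicate could be left out. The count of SR genes called stayed 0 in 30 of 30 alternatives. Most of these could not add a call, since no SR gene reached 1.5-fold or had separate FPKM intervals. The setting with counts, which has intervals of its own, could. The SR median kept its sign in all 12 that could move a ratio (pseudocount, counts, centring). It ranged from 0.13 to 0.16 at 1 h, −0.22 to −0.19 at 8 h and −0.23 to −0.21 at 24 h. Single SR ratios kept their sign in 115 of 120 under those settings. Srsf4 turned to −0.0332 with counts and −0.0021 with centring at 8 h, and to −0.0159 and −0.0110 at 24 h. Srsf3 turned to −0.0410 with counts at 24 h. Calls in the other splicing lists, 2 at 8 h, became 4 with counts, 0 at a fold of 2 and 6 without intervals. The 1 call at 24 h became 2, 0 and 5. Over all loci, the 55 calls at 1 h became 95 without the filter, 30 at 5 FPKM and 707 without intervals. The 612 at 8 h became 217 at a fold of 2 and 1896 without intervals, and the 762 at 24 h became 297 and 2371. The causes were not tested. Precision is limited by the deposited variances, with SEs of 0.19 to 0.23 for SR ratios at 2132 or more counts per gene.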

Other observations

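Counts and FPKM can differ where the effective length assigned to a gene differs between conditions. For SR genes the log2 ratio of counts minus that of FPKM ran from −0.08 (Srsf5) to 0.08 (Srsf6) at 1 h, and at 8 h from −0.07 (Srsf3) to 0.08 (Srsf11). Over all loci tested, the range from the 5th to the 95th percentile was −0.13 to 0.18 at 1 h and −0.17 to 0.14 at 8 h.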
